A study of Mus musculus with 36 samples.

Results

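The major urinary protein (MUP) genes were examined as 10 members, *Mup3*, *Mup7*, *Mup9*, *Mup10*, *Mup11*, *Mup12*, *Mup17*, *Mup20*, *Mup21* and the pseudogene *Mup-ps4*, picked by gene name from the 54532 genes of a liver count table. The table names 48 *Mup* genes and pseudogenes, of which 31 reached a sum of 100 counts over all libraries, and all 10 members were among these 31. The 10 were proposed with the difference between genotypes already known, so that difference is given for them as values without a test.

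Poly-A RNA was sequenced from livers of 36 adult male mice (2 to 3 months old) of the strain B6.129S1-Thrbtm1Df/J on a C57Bl/6NCrl background, all kept on chow under a light:dark cycle. The 18 homozygous mice (THRB-/-, called THRB-KO) are knockouts for both isoforms of thyroid hormone receptor beta. The authors describe the model as one that impairs the receptor's DNA binding. The 18 controls were heterozygous (THRB+/-, called THRB-WT), so every mouse carries at least 1 mutant allele, in liver and in all other tissues. At each of 6 sampling times, ZT2, ZT6, ZT10, ZT14, ZT18 and ZT22 (hours after lights on), 3 mice per genotype carry the letters a, b and c.

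Libraries held 29063273 to 39913574 counts (median 33540565) in THRB-WT and 31008555 to 42530551 (median 34190848) in THRB-KO. Levels are given as CPM, counts scaled to a common library size after TMM normalization. *Thrb* itself lay between 24.3 and 38.5 CPM in THRB-WT and between 26.2 and 37.7 CPM in THRB-KO livers, so that its count over the whole gene gave no check of the genotype labels. The summed CPM of 6 hepatocyte markers was between 61800 and 89100 in THRB-WT and between 68900 and 93100 in THRB-KO.

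MUPs are small secreted lipocalins, barrel-shaped carriers of hydrophobic molecules, that male mouse liver makes in large amounts and that pass through the kidney into urine, where they bind and slowly release volatile pheromones. Their genes form a cluster of recent tandem copies on chromosome 4, which differs in number and sequence between mouse strains. Liver expression of the family is known to be male-biased and to depend on pulsatile growth hormone acting through the receptor Ghr and the transcription factor Stat5b, with further input from androgens, glucocorticoids and thyroid hormone.

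Sequence decides how well reads can be assigned within this family, so the coding sequences are shown first. In the GENCODE M21 annotation of GRCm38, whose coordinates match those of the count table for all 10 members, 6 of them (*Mup7*, *Mup9*, *Mup10*, *Mup11*, *Mup12* and *Mup17*) have coding sequences that differ at 11 of 540 positions in all. Below, coding bases 247 to 366 (base 1 is the first base of the start codon) are written for these 6 and for the 3 more distant coding members. Capitals mark bases that differ from *Mup12*.
Mup12: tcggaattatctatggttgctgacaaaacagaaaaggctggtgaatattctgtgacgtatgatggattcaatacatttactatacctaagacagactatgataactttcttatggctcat
Mup11: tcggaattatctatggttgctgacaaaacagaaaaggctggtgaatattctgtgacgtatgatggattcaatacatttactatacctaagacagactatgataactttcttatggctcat
Mup7: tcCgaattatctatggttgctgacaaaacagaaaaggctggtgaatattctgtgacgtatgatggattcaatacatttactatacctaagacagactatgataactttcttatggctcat
Mup9: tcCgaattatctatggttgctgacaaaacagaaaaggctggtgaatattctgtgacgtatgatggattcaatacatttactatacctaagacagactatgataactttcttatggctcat
Mup10: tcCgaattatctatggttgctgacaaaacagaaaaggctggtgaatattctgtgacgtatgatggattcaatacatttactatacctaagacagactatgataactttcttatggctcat
Mup17: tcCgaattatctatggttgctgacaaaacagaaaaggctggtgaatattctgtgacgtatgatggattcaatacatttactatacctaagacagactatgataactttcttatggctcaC
Mup20: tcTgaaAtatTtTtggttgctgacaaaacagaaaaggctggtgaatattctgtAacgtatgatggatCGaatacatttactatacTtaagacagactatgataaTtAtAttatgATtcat
Mup3: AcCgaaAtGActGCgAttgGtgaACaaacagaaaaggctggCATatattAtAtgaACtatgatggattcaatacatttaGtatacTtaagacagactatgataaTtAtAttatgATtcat
Mup21: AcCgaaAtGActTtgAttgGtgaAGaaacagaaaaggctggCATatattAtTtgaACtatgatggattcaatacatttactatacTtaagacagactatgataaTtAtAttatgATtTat

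Over these 120 bases the 6 near-identical members differed from *Mup12* at 0 to 2 positions, whereas *Mup20* differed at 13, *Mup21* at 24 and *Mup3* at 25. Over the whole coding sequence, *Mup12* and *Mup11* differed at 2 bases, *Mup9* and *Mup10* also at 2, and *Mup7* and *Mup17* at 7. *Mup9* was identical over 540 aligned coding bases to *Mup18*, a family gene outside the 10. *Mup3* and *Mup21*, neighbours at one end of the cluster, differed from each other at 20 of 543 aligned bases. *Mup20*, which encodes darcin, the male pheromone protein that attracts females, differed from its closest relative, *Mup5*, at 42 of 539.

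Short reads from these genes can be shared to very different degrees. For *Mup7*, 12.9% of all stretches of 100 bases in its transcript occur in no annotated transcript of another gene, and the shares for *Mup9*, *Mup10*, *Mup11*, *Mup12* and *Mup17* were 14.9%, 14.6%, 16.5%, 22.5% and 40.6%. Each of these 6 transcripts shares such stretches with 16 or 17 other genes. *Mup3* reached 97.1%, *Mup21* 95.5%, *Mup20* 61.2% and the pseudogene *Mup-ps4* 54.8%. With stretches of 150 bases, *Mup3* and *Mup21* shared none, and *Mup-ps4* had 80.8% of its own, *Mup20* 68.9% and *Mup7* 22.5%. How the deposited counts treat reads with several matches is not given in the sources used here, and libraries were not directional, so that counts of the 6 near-identical members are uncertain as counts of a single gene, as are those of *Mup-ps4*, which shares 100-base stretches with 8 other pseudogenes. *Mup20* shares such stretches with the pseudogene *Mup-ps19* (mean of 1376 counts per library), so its counts are not free of this uncertainty either.

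**Figure D1:**
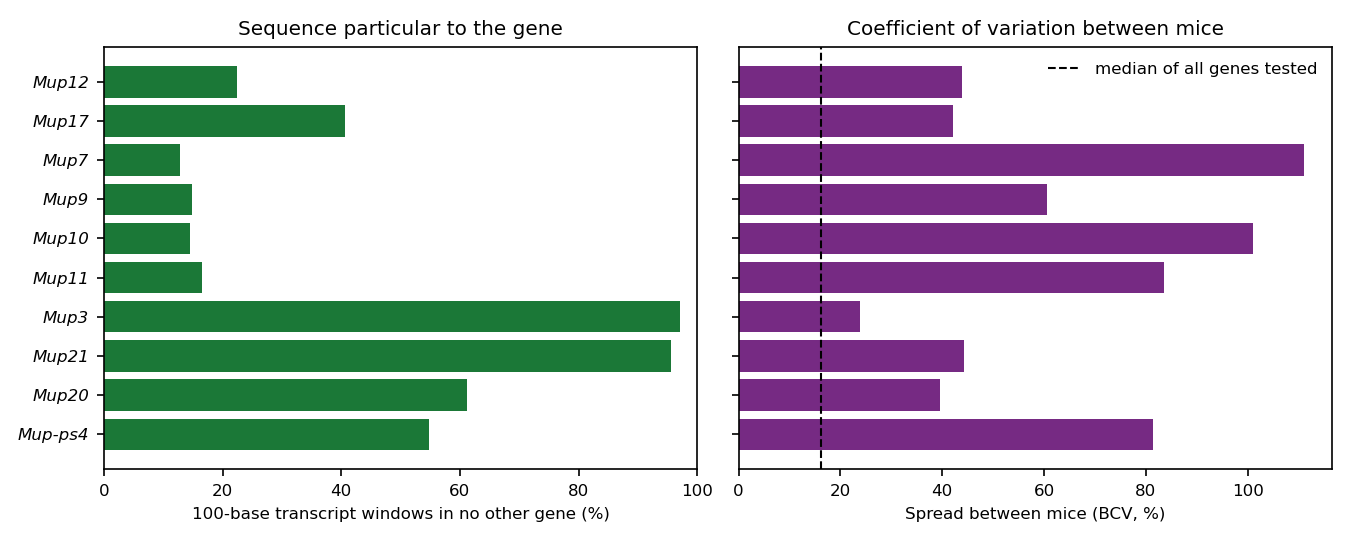
The left bars give, for each of the 10 members, the percentage of 100-base windows of its transcript that are found in no annotated transcript of another gene, and the right bars the biological coefficient of variation (BCV, %) of its counts between mice of 1 genotype and time, with the median of all genes tested (16.2%) as a dashed line. *Mup3* had the highest share of its own windows (97.1%) and the lowest spread of the members (23.8%), and *Mup7* the lowest share (12.9%) and the highest spread (111%). The members in between were not ordered in this way. The spread was 44.3% for *Mup21* (share 95.5%), 81.4% for *Mup-ps4* (54.8%) and 43.8% for *Mup12* (22.5%).

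The promoters of the family are alike as well. RefSeq promoter windows (GRCm38.p6, 250 bases before to 50 after the annotated start) were at hand for 7 members, and the motif TATATAA was found on either strand in 6 of these 7 (all but *Mup7*) and in 3.24% of all 32851 windows. The 60 bases before this motif are shown for 4 members, all on the minus strand of chromosome 4. They were more A-rich in *Mup9* and *Mup17* than in *Mup3* and *Mup21*. The motif ended 24 bases before the RefSeq start in *Mup9*, 18 in *Mup17*, 4 in *Mup3* and 1 in *Mup21*. For *Mup11* this distance was -5, past the start. These distances depend on the annotation, since in *Mup17*, *Mup3* and *Mup21* the motif lies inside the gene by the coordinates of the count table. TATATAA is in capitals.
Mup9 (chr4:60421977-60422043): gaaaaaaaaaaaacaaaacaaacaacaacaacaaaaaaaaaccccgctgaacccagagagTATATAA
Mup17 (chr4:61595851-61595917): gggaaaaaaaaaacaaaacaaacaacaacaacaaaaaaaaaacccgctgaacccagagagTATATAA
Mup3 (chr4:62087322-62087388): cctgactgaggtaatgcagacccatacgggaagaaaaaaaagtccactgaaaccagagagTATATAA
Mup21 (chr4:62150843-62150909): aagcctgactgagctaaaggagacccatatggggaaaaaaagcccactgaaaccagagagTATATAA

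Of the 60 bases before the motif, 39 were A in *Mup9*, 38 in *Mup17* and 37 in *Mup10* and in *Mup11*, against 25 in *Mup3* and in *Mup21*. Of the other near-identical members, *Mup12* had no window and *Mup7* no motif. The letters TTCNNNGAA, the core that Stat5 proteins recognise, were in none of the 7 windows (8.3% of all windows, either strand). AGGTCA, the half-site of thyroid hormone and other nuclear receptors, was in none of the 7 either (16.3% of all windows). These windows are short, and the absence of these letters in them says nothing about binding elsewhere.

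The 10 members together took 1.737% to 4.155% of all counts (median 2.184%) in THRB-WT and 0.653% to 2.881% (median 2.279%) in THRB-KO livers. *Mup3*, *Mup12* and *Mup17* made up 90.5% to 98.7% of the members' counts in every liver. Per kilobase of gene model, the THRB-WT level was highest for *Mup12* (8660 ± 3670 CPM per kb, SD, n = 18), then *Mup3* (7550 ± 1220) and *Mup17* (6760 ± 2890). These 3 overlapped within their spread and lay above *Mup21* (603 ± 172), *Mup7* (572 ± 488) and *Mup20* (338 ± 92.3), which overlapped among themselves. *Mup9* followed with 98.2 ± 124, *Mup10* with 18.9 ± 46.6, *Mup11* with 4.6 ± 8.39 and *Mup-ps4* with 3.2 ± 3.77 CPM per kb, and neighbours among these last 4 did not differ beyond their spread.

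The livers differed more in these genes than in most others. The coefficient of variation between mice of one genotype and time had a median of 52.4% over the 10 members (23.8% to 111%), against 16.2% over all 17994 genes tested. For *Mup7* it was above that of 99.8% of all genes tested, for *Mup10* of 99.7% and for *Mup3* of 67.0%.

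**Figure D2:**
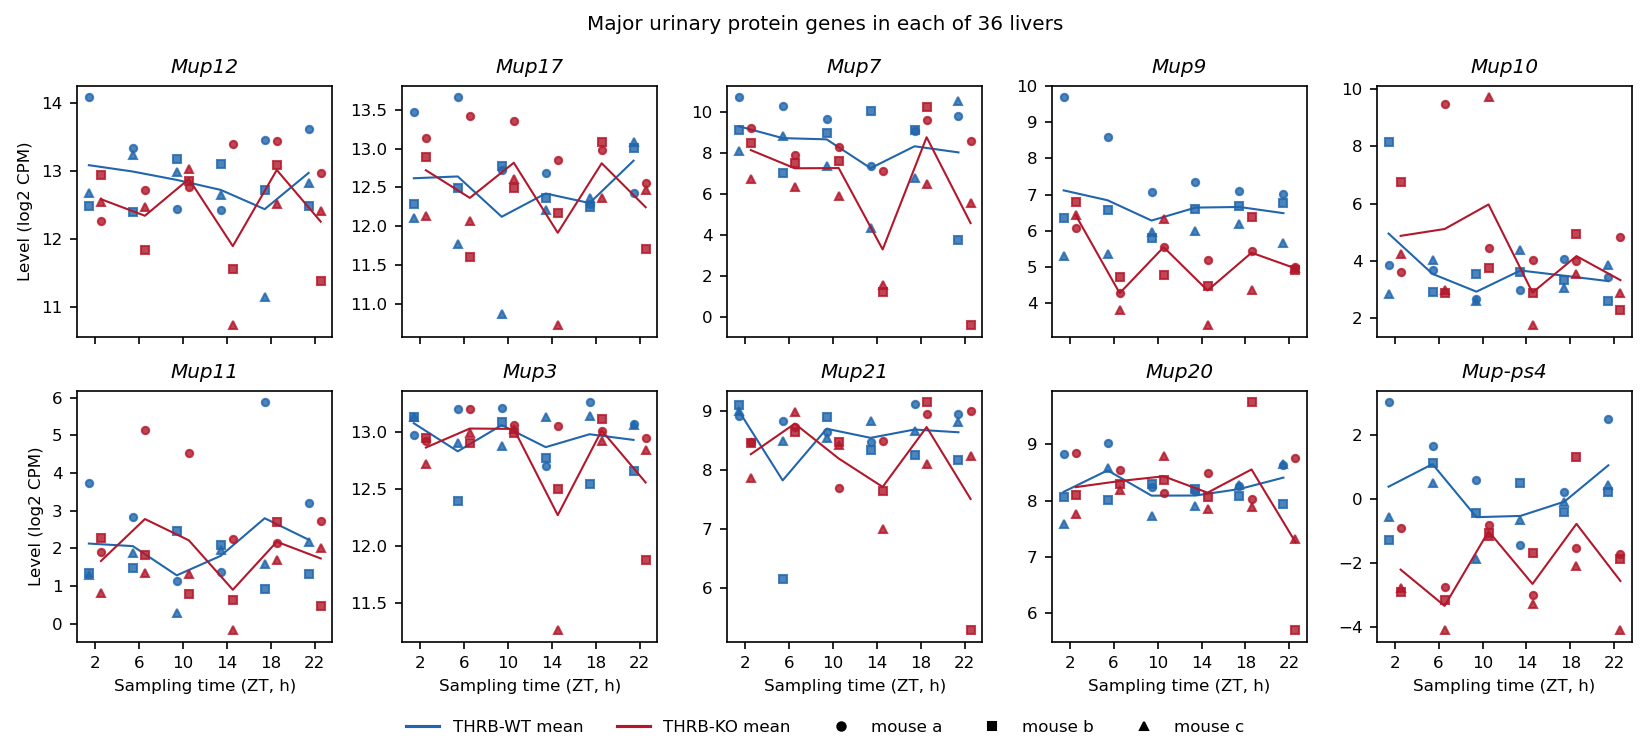
Each panel plots the log2 CPM of 1 member (y axis, own scale per panel) against sampling time in h (x axis) for 36 livers, with blue for THRB-WT, red for THRB-KO, a symbol for each letter and lines through the means of 3 mice. Single livers stand far from their group in *Mup10*, *Mup11* and *Mup7*, and the THRB-WT mean of *Mup9* is above the THRB-KO mean at 6 of 6 times.

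*Mup12* (chr4:60737383-60741326) and *Mup17* (chr4:61591929-61595871) were the abundant genes of the near-identical group. *Mup12* ran from 2250 to 17300 CPM (median 6990) in THRB-WT and from 1700 to 11100 (median 6350) in THRB-KO. *Mup17* ran from 1880 to 13000 CPM (median 5380) in THRB-WT and from 1680 to 10900 (median 5880) in THRB-KO. In *Mup12* 3 THRB-WT livers were above the highest THRB-KO liver and in *Mup17* 2, 1 THRB-KO liver was below the lowest THRB-WT liver in each gene, and the other livers of both genotypes overlapped. The THRB-KO minus THRB-WT difference, adjusted for time, was a log2 fold change of -0.35 (SE 0.211) for *Mup12* and -0.01 (SE 0.205) for *Mup17*.

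*Mup9* (chr4:60418046-60421952) was lower in most THRB-KO livers. It ran from 39.7 to 824 CPM (median 96.4) in THRB-WT livers and from 10.5 to 110 (median 31.5) in THRB-KO livers. Of the 18 THRB-KO livers, 11 were below the lowest THRB-WT liver and 6 THRB-WT livers were above the highest THRB-KO liver. The share of all genes with as little overlap was not counted, here or for other members. The log2 fold change was -1.76 (SE 0.328), and the THRB-KO mean was lower at 6 of 6 times, as it was for 4.14% of all genes tested. *Mup18*, identical to *Mup9* over 540 aligned coding bases, had a log2 fold change of -1.80 (SE 0.618). Its THRB-KO mean was also lower at 6 of 6 times, and WT ZT2 a (104 CPM) and WT ZT6 a (62.7) were its highest livers. The part of reads shared by these 2 genes was not tested.

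The *Mup9* difference was not of one size over the letters of the mice. Among THRB-WT livers, mouse a had the highest *Mup9* of its 3 at 6 of 6 times, with medians over the times of 150 CPM for letter a, 96.4 for b and 56.6 for c. The 2 highest livers were WT ZT2 a (824 CPM) and WT ZT6 a (387 CPM), while all other THRB-WT livers were at 162 CPM or below. Among THRB-KO livers, mouse a was highest at 2 of 6 times, with medians of 39.9, 29 and 26 CPM. Fitted within 1 letter, the log2 fold change was -2.53 for a, -1.13 for b and -0.86 for c, with WT ZT2 a and WT ZT6 a left out together it was -1.23, and with all mice of letter a left out it was -0.94 (SE 0.32). The labels do not say what the letters stand for, and a difference between letters was not tested.

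*Mup-ps4* (chr4:60437362-60440064, plus strand), a pseudogene 15409 bases from *Mup9*, had few counts, 998 over 18 THRB-WT and 190 over 18 THRB-KO libraries. It ran from 0.217 to 8.11 CPM (median 1.12) in THRB-WT and from 0 to 2.42 (median 0.196) in THRB-KO. 10 of 18 THRB-KO livers were below the lowest THRB-WT liver, and KO ZT18 b (2.42 CPM) was the one THRB-KO liver above the THRB-WT median. The log2 fold change was -2.51 (SE 0.524), with -3.33 within letter a, -1.52 within b and -2.87 within c, and it was -1.87 (SE 0.569) with all mice of letter a left out. Across livers, the deviations of *Mup-ps4* and *Mup9* from the mean of their genotype and time correlated with r = 0.576 over 36 libraries.

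*Mup7* (chr4:60066469-60070475) was the most variable member. It ran from 13.7 to 1680 CPM (median 518) in THRB-WT and from 0.699 to 1210 (median 162) in THRB-KO livers. The lowest livers were KO ZT22 b (0.699 CPM), KO ZT14 b (2.24) and KO ZT14 c (2.87), yet WT ZT22 b (13.7) and WT ZT14 c (20.5) were also low. The log2 fold change was -1.59 (SE 0.639), with the THRB-KO mean lower at 5 of 6 times.

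*Mup10* (chr4:60578260-60582199) was high in few mice. It ran from 5.93 to 286 CPM (median 11.1) in THRB-WT and from 3.31 to 833 (median 14.7) in THRB-KO. More than 3 times the median of its genotype was reached in 1 THRB-WT liver, WT ZT2 b (286 CPM), and in 3 THRB-KO livers, KO ZT2 b (108), KO ZT6 a (706) and KO ZT10 c (833). The other 17 THRB-WT livers lay between 5.93 and 21 CPM and the other 15 THRB-KO livers between 3.31 and 30.5. The log2 fold change of 1.26 (SE 0.782) went to 0.40 without KO ZT6 a and to 1.95 without WT ZT2 b.

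*Mup11* (chr4:60658466-60662411) had the same kind of pattern at a lower level. It ran from 1.15 to 58.9 CPM (median 3.3) in THRB-WT and from 0.828 to 35.7 (median 3.57) in THRB-KO. WT ZT18 a (58.9 CPM), KO ZT6 a (35.7) and KO ZT10 a (23) were the highest. The log2 fold change of -0.14 (SE 0.503) lay between -0.53 and 0.38 when single livers were left out, so that it changed sign with 1 mouse.

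In the 3 coding members outside the near-identical group, the genotypes were close. This does not cover *Mup-ps4*, which also had 80.8% of its 150-base stretches to itself and a log2 fold change of -2.51 (SE 0.524). *Mup3* (chr4:62083476-62087342) ran from 5350 to 9790 CPM (median 8570) in THRB-WT and from 2460 to 9400 (median 7930) in THRB-KO, with a log2 fold change of -0.14 (SE 0.109). *Mup21* (chr4:62147932-62150863) ran from 71.1 to 562 CPM (median 430) and from 38.9 to 570 (median 354), with a log2 fold change of -0.30 (SE 0.219). *Mup20* (chr4:62050234-62054158), the darcin gene, ran from 191 to 518 CPM (median 299) and from 52 to 857 (median 288), with a log2 fold change of 0.03 (SE 0.193). The THRB-WT and THRB-KO livers overlapped over most of the range in all 3 genes, with WT ZT6 b and KO ZT22 b far below the others in *Mup21* and KO ZT18 b above the others in *Mup20*.

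Of the 10 members' log2 fold changes, 8 were negative and 2 positive, with a median of -0.22 against -0.001 over all 17994 genes. With the counts of the 10 members summed to 1 value per library, the log2 fold change was -0.19 (SE 0.145), and with all 48 *Mup* genes summed -0.17 (SE 0.148). The sum of the 10 does not depend on how counted reads are split among them. It can still depend on reads that were left uncounted or counted for other *Mup* genes.

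**Figure D3:**
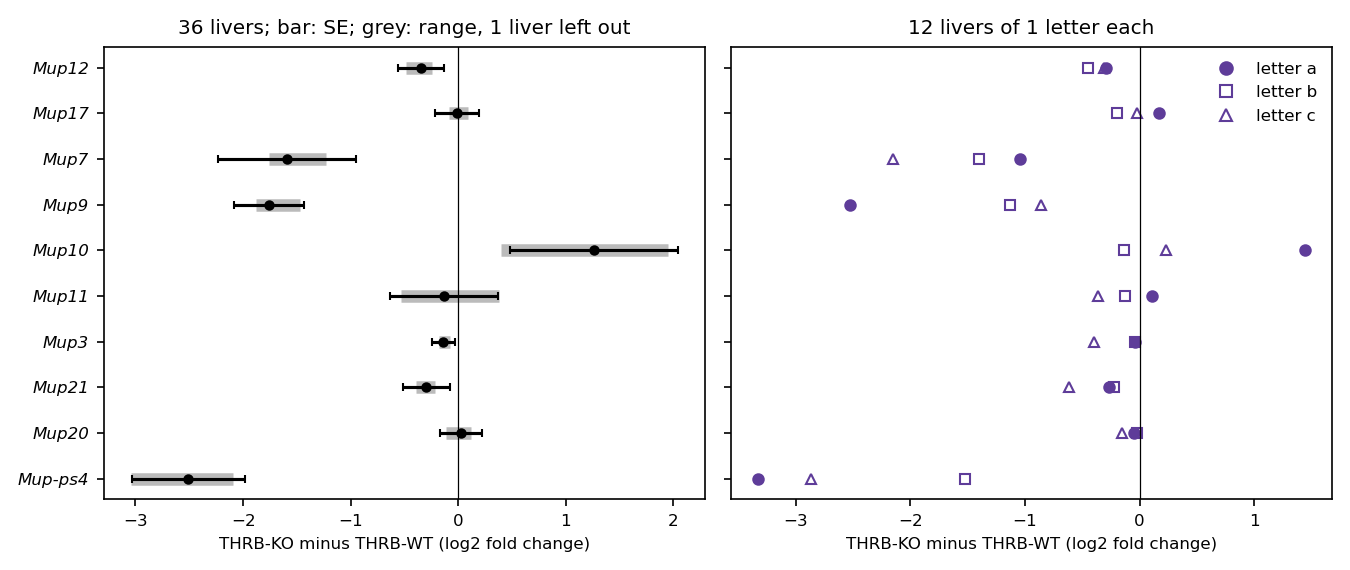
Both panels plot the log2 fold change, THRB-KO minus THRB-WT (x axis), for the 10 members. On the left, points and bars give the value and SE over 36 livers and grey the range when each liver was left out in turn, which spans 0.40 to 1.95 for *Mup10* and crosses 0 for *Mup11*, *Mup17* and *Mup20*. On the right, symbols give the value within the 12 livers of 1 letter, with *Mup9* at -2.53 for letter a and -0.86 for letter c.

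A pair of THRB-KO livers was low in most of the family. KO ZT14 c had the lowest THRB-KO level of 6 members, *Mup3* (2460 CPM), *Mup9* (10.5), *Mup10* (3.31), *Mup11* (0.828), *Mup12* (1700) and *Mup17* (1680). KO ZT22 b had the lowest THRB-KO level of *Mup7* (0.699), *Mup20* (52) and *Mup21* (38.9). The 10 members took 0.653% and 1.027% of all counts in these 2 livers, where the next lowest THRB-KO liver, KO ZT14 b, had 1.391% and the lowest THRB-WT liver 1.737%. Without this pair, the log2 fold change of the summed members was -0.07 (SE 0.116), of *Mup3* -0.03 (SE 0.0717) and of *Mup9* -1.69 (SE 0.343).

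In the same 2 livers, some genes that are usually higher in female than in male liver were high. The summed CPM of 11 such genes was 136 in KO ZT14 c and 153 in KO ZT22 b, against 5.91 to 38.8 in THRB-WT livers, and 5 and 7 of the 11 were above the highest THRB-WT liver. In KO ZT14 c, *Cyp2a4*, a steroid hydroxylase, was at 79.7 CPM (THRB-WT 1.36 ± 0.917, SD, n = 18) and *Cux2*, a female-specific regulator in liver, at 8.53 CPM (THRB-WT 0.892 ± 1.1). In KO ZT22 b the cytochrome P450 gene *Cyp2b9* was at 97.2 CPM. Each of the 2 sums was held mostly by a single gene, and not by the same one. *Cyp2a4* was at 4.11 CPM in KO ZT22 b, and *Cyp2b9* at 5.96 CPM in KO ZT14 c. Of 16 genes usually higher in males, 6 in KO ZT14 c and 12 in KO ZT22 b were below the lowest THRB-WT liver. The summed CPM of these 16 was 14200 in KO ZT14 c, inside the THRB-WT range (5940 to 22700), where *Serpina1e*, a serine protease inhibitor gene with close paralogs, held 9950 CPM of it (THRB-WT 6850 ± 3310), and 5400 in KO ZT22 b. *Cyp7b1*, an oxysterol hydroxylase, was at 79.5 and 32.4 CPM against 300 ± 120 in THRB-WT, and *Hsd3b5*, a steroid dehydrogenase, at 41.1 and 29.3 against 210 ± 84.5. KO ZT10 a had 5 female-biased genes above and 6 male-biased genes below all THRB-WT livers too, but its members took 2.59% of all counts, above the THRB-KO median. The share of all genes tested outside the THRB-WT range in these livers was not counted, so these counts stand without that background. Both sex-biased lists were also written with earlier results of these data known. Of 20 growth hormone signalling genes, 2 in KO ZT14 c and 1 in KO ZT22 b were below all THRB-WT livers, and as many were above. The hepatocyte marker sum was 83600 CPM in KO ZT14 c, within the THRB-WT range, and 93100 CPM in KO ZT22 b, the highest of all 36 livers. KO ZT22 b also had the highest sums of 5 endothelial markers (156 CPM, THRB-WT up to 143) and of 5 stellate cell markers (282 CPM, THRB-WT up to 238), and the part of these in its low *Mup* levels was not tested. In bulk tissue, fewer cells of a type and less RNA per cell cannot be told apart, and the part of these livers' state in the genotype differences was not tested beyond the fits without them.

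**Figure D4:**
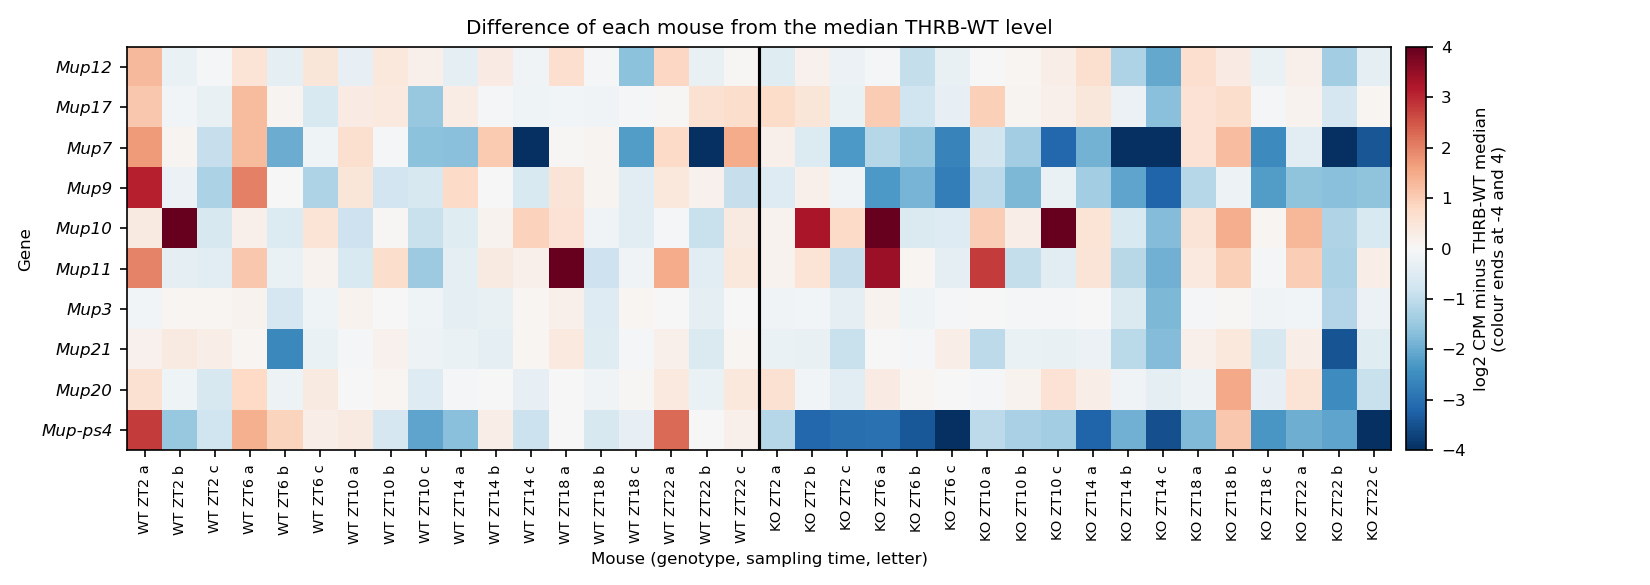
Colour gives the log2 CPM of each of the 10 members (rows) in each of 36 livers (columns, THRB-WT left of the line, THRB-KO right) minus the median of the 18 THRB-WT livers, with colours ending at -4 and 4. KO ZT14 c and KO ZT22 b are blue in most rows, WT ZT2 a is red in *Mup9*, *Mup-ps4* and the near-identical genes, and *Mup10* is dark red in single livers.

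The sum of the 6 near-identical members was higher in a pair of THRB-WT livers than in all other livers of either genotype. WT ZT2 a and WT ZT6 a had 31200 and 24900 CPM in the sum of the 6 near-identical members, where the THRB-WT median was 13500 CPM. In the sum of *Mup3*, *Mup20* and *Mup21* the same 2 livers had 8980 and 10400 CPM, within the range of all THRB-WT livers (5680 to 10700 CPM, median 9440), a sum made up mostly of *Mup3*. For *Mup20* alone they were the 2 highest THRB-WT livers, at 454 and 518 CPM. These 2 livers also had 15 and 13 *Mup* genes above 100 CPM, where the median liver of either genotype had 9.5.

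The members varied together across livers to a moderate degree. Deviations from the mean of genotype and time gave r between -0.01 and 0.774 over 45 pairs (median 0.426, 36 libraries), as a description in which all pairs share the libraries. The highest values were *Mup3* with *Mup21* (0.774), *Mup20* with *Mup21* (0.753) and *Mup7* with *Mup20* (0.734). The median was 0.753 over the 3 pairs of *Mup3*, *Mup20* and *Mup21* and 0.426 over the 15 pairs of the 6 near-identical members. It was 0.451 over the 18 pairs between those 3 genes and the 6 near-identical members. The part of shared reads in these values was not tested. Without KO ZT14 c and KO ZT22 b the median over 45 pairs was 0.37.

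Whether the members follow the time of day was tested by sine and cosine terms of a 24-h period within each genotype, which the choice of members did not use. In THRB-WT livers 2 of 10 members passed, *Mup10* and *Mup-ps4*, beside 33.1% of all genes tested, and in THRB-KO livers 1 of 10, *Mup10*, beside 28.9%. The spread between mice of the members, given above, was wider than that of most genes, and the shares were not compared by a test. *Mup3*, *Mup12* and *Mup17*, which hold most of the counts, had log2 amplitudes of 0.02, 0.26 and 0.29 in THRB-WT and 0.13, 0.14 and 0.09 in THRB-KO, and adjusted p-values (edgeR) between 0.434 and 0.978.

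The 3 rhythm calls were each lost when 1 or 2 livers, picked because they were high in the gene, were left out. *Mup10* had a log2 amplitude of 1.34 with a peak at ZT1.53 in THRB-WT (adjusted p = 0.0332, edgeR) and of 2.34 with a peak at ZT7.6 in THRB-KO (adjusted p = 0.0223, edgeR). Without WT ZT2 b the first became 0.09 (adjusted p = 0.918), and without KO ZT6 a and KO ZT10 c the second became 0.76 (adjusted p = 0.293). With the mice of letter a, which include KO ZT6 a, or those of letter c, which include KO ZT10 c, left out, the THRB-KO amplitude was still 2.29 or 2.00, although the call was lost (adjusted p = 0.144 and 0.0854, edgeR). *Mup-ps4* had an amplitude of 1.17 with a peak at ZT1.55 in THRB-WT (adjusted p = 0.0419, edgeR), which became 0.78 without WT ZT2 a (adjusted p = 0.256).

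No gene passed the test for a genotype difference that changes with sampling time (edgeR, 5 interaction coefficients), with 0 of 17994 genes at an adjusted p under 0.05, 0 also in DESeq2, and 2.69% at an unadjusted p under 0.05. Among members, *Mup10* (unadjusted p = 0.015, edgeR) and *Mup-ps4* (unadjusted p = 0.0142, edgeR) were under that mark. The difference of *Mup10* ran from a log2 fold change of -1.14 at ZT2 to 5.20 at ZT10, which are the times of WT ZT2 b and KO ZT10 c. That of *Mup9* ran from -3.12 at ZT6 to -0.72 at ZT10.

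Of 20 genes of growth hormone signalling, the upstream pathway of the family, 0 passed an adjusted p of 0.05 between genotypes in edgeR, beside 0.950% of all genes tested, and 1 in DESeq2 (*Stat5a*, higher in THRB-KO). An unadjusted p under 0.05 in edgeR was reached by 3 of the 20, beside 12.1% of all genes tested, with a median log2 fold change of -0.01. The receptor *Ghr* was at 510 ± 65.4 CPM in THRB-WT and 499 ± 47.1 in THRB-KO (SD, n = 18 each). *Stat5b* was at 59.3 ± 15.1 and 65.6 ± 14.5 CPM (log2 fold change 0.16, adjusted p = 0.23, edgeR), and *Igf1*, the hormone whose liver synthesis growth hormone drives, at 607 ± 64.8 and 553 ± 53.2 CPM (log2 fold change -0.13, adjusted p = 0.19, edgeR). The growth hormone readouts *Socs2* and *Cish* were at 23.7 ± 17.3 and 24.1 ± 20.4 CPM in THRB-WT and at 27.9 ± 20.6 and 24.2 ± 22.2 in THRB-KO. Without KO ZT14 c and KO ZT22 b, *Stat5a* was called higher in THRB-KO (log2 fold change 0.25, adjusted p = 0.00866, edgeR).

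Of 16 other genes usually higher in male liver, 3 fell in THRB-KO, beside 0.445% of all genes tested, and none rose, with a median log2 fold change of -0.34. They were *Cspg5*, a proteoglycan gene (5.04 ± 1.84 CPM in THRB-WT and 2.75 ± 1.36 in THRB-KO, log2 fold change -0.93, adjusted p = 0.016, edgeR), *Ugt2b1*, a glucuronosyltransferase (608 ± 75.8 and 504 ± 88.7 CPM, log2 fold change -0.27, adjusted p = 0.0204, edgeR), and *Cyp4a12b*, a fatty acid hydroxylase with the close paralog *Cyp4a12a* (92.7 ± 24.1 and 60.5 ± 23.7 CPM, log2 fold change -0.61, adjusted p = 0.0498, edgeR). Of 16 genes usually higher in female liver, 11 could be tested and 1 rose, beside 0.506% of all genes tested, *Cyp2b9* (1.45 ± 2.66 and 14.2 ± 26.9 CPM, log2 fold change 3.17, adjusted p = 0.00967, edgeR). Without KO ZT14 c and KO ZT22 b, *Cyp4a12b* was no longer called (log2 fold change -0.55, adjusted p = 0.0959, edgeR), with a difference about as large, and the other 3 still were. The male-biased and female-biased lists were written with earlier results of these data known. Their counts beside the shares of all genes are therefore a description and no test of the lists as sets.

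No other liver lipocalin was called between genotypes, with 0 of 9 tested genes past an adjusted p of 0.05 in edgeR or DESeq2, 0 at an unadjusted p under 0.05 in edgeR and a median log2 fold change of 0.09. *Orm1*, an acute-phase carrier, was at 680 ± 123 CPM in THRB-WT and 605 ± 137 in THRB-KO, and *Rbp4*, the plasma retinol carrier, at 3840 ± 385 and 3960 ± 459. No marker of hepatocytes, Kupffer, endothelial, stellate or bile duct cells or lymphocytes was called between genotypes, out of 29 tested in edgeR, with 3 at an unadjusted p under 0.05 (12.1% of all genes tested) and 0 called by DESeq2.

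Across livers, the genes whose deviations were most like those of the summed members were *Rarres1* (Pearson r = 0.877), *Tmco1* (0.832), *Cyp2d40* (0.831), *Creb3l3* (0.801) and *Cyp7b1* (0.783), among 11898 genes outside the family and over 36 libraries. *Creb3l3* encodes a liver transcription factor of fasting and lipid metabolism, and *Rarres1* a retinoic acid responsive membrane protein. *Rarres1* ran from 24 to 100 CPM in THRB-WT and from 7.32 to 78 in THRB-KO, with the lowest value in KO ZT14 c. The lowest r were those of *App* (-0.827), *Steap2* (-0.819) and *Rtn4* (-0.805). Without KO ZT14 c and KO ZT22 b these 8 values lay between 0.681 and 0.809 and between -0.738 and -0.681, and among the 18 THRB-WT livers alone between 0.616 (*Cyp2d40*) and 0.927 (*Rarres1*) and between -0.919 (*Rtn4*) and -0.668 (*App*). All points share the libraries, and their depth and scaling, so these values are a description.

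In the rest of the family, 11 further genes had a mean of at least 50 counts, and several were as uneven between livers as *Mup7* and *Mup10*. They were *Mup19*, *Mup16*, *Mup2*, *Mup15*, *Mup1*, *Mup14*, *Mup13*, *Mup-ps19*, *Mup4*, *Mup18* and *Mup8*. Their coefficients of variation between mice ran from 48.7% for *Mup1* to 208% for *Mup4*, and their log2 fold changes, as values without a test, from -1.80 for *Mup18* (SE 0.618) to 1.62 for *Mup14* (SE 0.821). *Mup19*, the most abundant of them, had a median of 1720 CPM in THRB-WT and 1420 in THRB-KO, with its highest liver 846 times its lowest. *Mup4*, whose median was 32.1 CPM in THRB-WT and 0.127 in THRB-KO, was listed at 0 in 12 of 36 livers, while its highest liver held 148 CPM.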

How the data were processed

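Poly-A liver RNA from 36 male mice was measured, in 18 THRB-WT and 18 THRB-KO libraries, grouped by the sample labels. The authors removed low-quality reads, mapped read pairs to GRCm38 (mm10) with HISAT2 and counted them per gene with featureCounts, and they deposited whole-number counts for 54532 genes, not normalized. Versions, annotation release, strand setting and the treatment of reads with several matches are not given in the sources used here. Such reads can move between *Mup* copies.

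The tests covered the 17994 genes whose counts over all 36 libraries added up to 100 or more. Counts were scaled by TMM and fitted by edgeR 4.0.16 (glmQLFit, glmQLFTest, R 4.3.3), with sampling time as a factor and genotype, with sine and cosine terms (24 h) within a genotype, or with 5 interaction coefficients, and Benjamini-Hochberg adjustment ran over all genes tested (threshold 0.05). Standard errors of log2 fold changes were taken as the absolute log2 fold change divided by the square root of the F statistic. CPM values use TMM library sizes, and log2 CPM a prior count of 2. No pair of replicate libraries was near-identical (chi-square per gene of 32.7 to 136 over 36 pairs). Fits were tested on simulated data. P-values set an effect against the spread between these mice, taken as independent, and those of the main fits do not use the letters. Depths were from 29063273 to 42530551 counts, and a count of 0 allows up to 3 counts by counting error alone.

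Transcripts of GENCODE M21 were compared with Biopython 1.88 (Python 3.11.15), and promoter windows came from RefSeq. For each gene the coding transcript whose coding length was closest to the family's median was used. The genes named are the 10 members, other *Mup* genes with a mean of at least 50 counts, called genes of fixed lists (growth hormone signalling, sex-biased genes, lipocalins, markers of 6 cell types) with *Ghr*, *Stat5b* and *Igf1*, and the 5 highest and 3 lowest correlations with the summed members. *Thrb*, *Socs2*, *Cish*, *Stat5a*, *Serpina1e*, *Orm1*, *Rbp4* and the sex-biased genes given for single livers were named after their values were seen. Members and lists were chosen with earlier results of these data known. Alternatives were DESeq2 1.42.0 (likelihood ratio test and size factors), other filters, library sizes without *Mup* genes, pooled times, time as a factor, pairing by letter, summed genes and leaving out letters. Fits without single mice or within 1 letter were added after seeing the data.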

Additional observations from a re-analysis of the deposited data

How the results depend on the processing

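The number of genes called between genotypes, 171 in edgeR with time in the model, was 65 with times pooled, 306 by DESeq2's likelihood ratio test, 387 with the replicate block of time and letter, 109 without WT ZT2 a and WT ZT6 a (chosen after seeing the data) and 37 to 81 without the mice of 1 letter. It stayed within 1.5 times under other size factors, library sizes, filters, summed genes and without KO ZT14 c and KO ZT22 b. Without the mice of 1 letter, 3113 to 4004 genes were called rhythmic in THRB-WT and 2343 to 3192 in THRB-KO, with fewer mice in each fit. No interaction was called under any of 7 alternatives. The log2 fold changes of the 10 members moved by less than the SD between single mice under every alternative run. This is a wide mark, from 0.377 in log2 for *Mup3* to 2.4 for *Mup7*. Within it, *Mup9* went from -1.76 to -0.94 and *Mup10* from 1.26 to 0.04 without letter a. The values of *Mup17* and *Mup20*, near 0, changed sign without the mice of 1 letter. DESeq2 called 5 of the 16 male-biased genes lower, against 3 in edgeR. The rhythm call of *Mup10* in THRB-WT was lost without any of the 3 letters (adjusted p = 0.055 to 0.849, edgeR, with log2 amplitudes of 1.49 without a, 0.17 without b and 1.73 without c) and with letter as a block (0.23, amplitude 0.94). That of *Mup-ps4* in THRB-WT was lost without letter a (adjusted p = 0.881, edgeR, amplitude 0.20) or c (0.094, amplitude 1.30), with the block (0.0914, amplitude 0.90) and with time as a factor (0.288). That of *Mup10* in THRB-KO was lost without letter a (adjusted p = 0.144, edgeR, amplitude 2.29) or c (0.0854, amplitude 2.00), with the block (0.0823, amplitude 2.22) and with time as a factor (0.0733, no amplitude). These amplitudes of *Mup10* in THRB-KO were near the 2.34 over all mice. Each of these fits kept KO ZT6 a or KO ZT10 c, and without both livers the amplitude was 0.76. *Mup9* in THRB-KO was called with time as a factor (adjusted p = 0.0153, edgeR). DESeq2 gave no adjusted p for the rhythm of *Mup10*, and the cause was not tested. Mice of one time and letter in the 2 genotypes deviated together in 16 of 18 pairs at r over 0.1 (median 0.218, lowest -0.07). Of 18 THRB-WT mice, 17 correlated best with the THRB-KO mouse of their own letter. The column names also carry numbers, which rise from a to c at each time and mostly lie close between the genotypes. What these numbers stand for is not given, and the main fits did not pair mice. The replicate block changed no other call of a member. Depth limits *Mup-ps4*, with a mean of 33 counts per library, and *Mup11*, with 215.5.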
